A study of Mus musculus with 30 samples.

Results

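The node is the small organizer at the anterior end of the primitive streak, and the notochord is the midline rod that grows out of it. The genes described here mark both: Shh, Chrd, Nog, Foxa2, Noto, Foxd4, Foxj1 and Pkd1l1. They are 8 of the 55487 genes in each count table, matched by Ensembl gene identifier to mouse symbols. The genes were selected on their RNA levels in these 18 libraries, among them the lower levels with DOX in iETV2, which were already known, so their levels and changes are given as a description. Where the text counts members past a threshold of a test, the count is a description too, and nothing is read from it.

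RNA-seq was done on mouse cells labelled as embryonic stem cells, in 18 libraries that form 6 groups of 3. The iETV2 line, in which doxycycline (DOX) is used to induce the transcription factor ETV2, was sampled as untreated control and with DOX (experiment 1). The iETV2-KDM4A (H188A) line, called the H188A line here, has the same design (experiment 2). Its label names a substitution in KDM4A and is given to both H188A groups. The label does not state how the substituted KDM4A was introduced. Experiment 3 set control cells against a group with the genotype label KDM4A/4C DKO, read here as loss of both KDM4A and KDM4C, demethylases of lysine 9 of histone H3. Experiment 4 mapped H3K9me3, the trimethylated form of that lysine, by ChIP-seq in 3 libraries with DOX and 3 without. Its material is named as embryoid bodies, so these libraries are not matched to the RNA libraries. The labels give no time of differentiation for the RNA, and neither clone numbers nor separate cultures for the replicates, so each p below measures the spread between these samples only.

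Cells of the node carry motile cilia whose leftward flow sets up the left-right axis, and the notochord that descends from them secretes Sonic hedgehog (SHH) to the neural tube, somites and gut. SHH binds the receptor PTCH1, which releases Smoothened and activates the GLI factors, and Ptch1 and Gli1 are themselves transcribed in response. Chordin and noggin, the products of Chrd and Nog, bind BMP ligands outside the cell and keep them from their receptors.

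Promoter sequences are shown for 4 members because all 4 were lower with DOX in iETV2 while their promoters differ in base composition. Each runs 5′ to 3′ with 250 bases before the annotated start site in lower case and the first 10 transcribed bases in capitals (RefSeq, GRCm38.p6).
Noto (chr6:85423636-85423895, plus strand): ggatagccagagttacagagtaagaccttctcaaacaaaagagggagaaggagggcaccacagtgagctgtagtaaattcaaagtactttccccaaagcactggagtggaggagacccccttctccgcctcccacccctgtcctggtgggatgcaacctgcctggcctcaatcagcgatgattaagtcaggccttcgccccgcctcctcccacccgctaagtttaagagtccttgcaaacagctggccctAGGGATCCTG
Foxd4 (chr19:24901007-24901266, minus strand): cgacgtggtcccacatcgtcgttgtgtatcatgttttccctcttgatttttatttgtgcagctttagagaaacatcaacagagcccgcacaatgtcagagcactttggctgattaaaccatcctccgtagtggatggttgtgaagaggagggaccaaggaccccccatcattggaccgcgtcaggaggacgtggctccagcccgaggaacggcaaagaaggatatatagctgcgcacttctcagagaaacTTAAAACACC
Chrd (chr16:20732877-20733136, plus strand): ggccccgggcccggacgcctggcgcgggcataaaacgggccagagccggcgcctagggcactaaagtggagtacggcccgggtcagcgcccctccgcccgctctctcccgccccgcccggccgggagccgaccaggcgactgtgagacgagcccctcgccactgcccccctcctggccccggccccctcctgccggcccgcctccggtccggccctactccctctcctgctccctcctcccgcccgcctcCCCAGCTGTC
Pkd1l1 (chr11:8974700-8974959, minus strand): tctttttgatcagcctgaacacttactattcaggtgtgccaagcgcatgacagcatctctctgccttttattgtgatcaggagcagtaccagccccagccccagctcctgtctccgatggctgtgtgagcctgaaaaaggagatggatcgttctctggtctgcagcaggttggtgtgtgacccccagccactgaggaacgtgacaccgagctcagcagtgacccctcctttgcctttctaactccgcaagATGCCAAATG

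Over the 300 bases from 250 before to 50 after the start site, the Chrd promoter had a GC content of 78.3% and 34 CG dinucleotides. Of all 32851 promoters in the RefSeq table, 98.2% had a lower GC content. The Chrd window lies inside the span given for Chrd below, not before it, and inside the overlapping gene Thpo. Noto had 54% with 6 CG dinucleotides, Pkd1l1 51% with 6, and Foxd4 49% with 12, against a median of 52.7% and 7 over all promoters. The 3 listed Foxa2 promoters had 54.3, 64 and 51.7%. In all, 5 of the 8 members matched the table, with 7 promoters. In addition, 5 motifs were searched on both strands, and none was found in these 7 promoters. The ETS motif CCGGAAG, bound by the family that includes ETV2, is in 8.86% of all promoters, the forkhead motif TGTTTAC in 3.65%, the T-box motif TCACACC in 3.98%, GTTGCC, a half-site of the X-box bound by RFX factors, in 12.5%, and the GLI motif TGGGTGGTC in 0.253%. No match says only that these letters are absent from the windows.

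Library totals ran from 40334911 to 68970038 counts, so that 3 counts, the floor used for a count of 0, correspond to between 0.0435 and 0.0744 CPM (counts scaled to a common library total). Etv2 was at 2.73 to 3.05 CPM in untreated iETV2 and 18.1 to 19.7 with DOX, and at 0.139 to 0.669 and 11.5 to 18.6 CPM in the H188A line. Kdm4a was at 80.6 to 87 CPM in untreated H188A and 83.6 to 88.6 with DOX, beside 83.8 to 87.5 and 83.4 to 90.4 in iETV2. In experiment 3, Kdm4a was at 53.9 to 55.7 CPM in control and 42 to 46.9 in the libraries labelled DKO. Kdm4c was at 29.6 to 32.2 CPM in control and 42.7 to 48 in the libraries labelled DKO, so its RNA was not lower there. Counts per gene do not show whether a protein is lost, so these libraries are called by their label throughout. The labelled cell type was checked against 8 pluripotency markers, whose summed level was 663 to 707 CPM in untreated iETV2, 606 to 698 with DOX, 1500 to 1850 in the H188A line, 45.6 to 50.3 in the control of experiment 3 and 1170 to 1240 in the libraries labelled DKO. The control of experiment 3 also held 1220 to 1240 CPM of the 8 blood and endothelium markers. T, which encodes Brachyury, the T-box factor of the streak and notochord, was at 844 to 894 CPM in untreated iETV2, 652 to 695 with DOX, 0.188 to 0.57 and 1.26 to 1.66 CPM in the H188A line without and with DOX, 63.3 to 65.5 in the control of experiment 3 and 244 to 264 in the libraries labelled DKO.

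All 8 members had their highest level in untreated iETV2, and in each case the lowest of its 3 libraries was above the highest library of every other group. The position of the remaining groups differed between members. The order of the levels in the other 5 groups is given with each gene below.

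Shh, on chromosome 5 (chr5:28456840-28467101, ENSMUSG00000002633), encodes the secreted ligand. It was at 29, 28.2 and 27.5 CPM in the untreated iETV2 libraries and at 1.9, 1.95 and 1.64 CPM with DOX. Every untreated library was thus above every DOX library. In the H188A line it had 33, 7 and 0 counts without DOX and 0 counts in each of the 3 DOX libraries, whose floors were 0.0622, 0.0599 and 0.0483 CPM. The control cells of experiment 3 had 8, 16 and 43 counts and the libraries labelled DKO 2, 4 and 2. Below the iETV2 groups, the ranges of the control of experiment 3, untreated H188A and the libraries labelled DKO each overlapped the next. The control of experiment 3, at 0.144 CPM or more, did not itself overlap the libraries labelled DKO, at 0.0706 CPM or less. Beside these low counts, the summed level of odorant, vomeronasal and trace amine receptor genes was 598, 195 and 49.1 CPM in untreated H188A replicates 1 to 3 and 19.2, 18.5 and 56.9 CPM in the control of experiment 3. Its part in the Shh counts was not tested.

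Chrd (chr16:20731425-20742384, ENSMUSG00000006958) was at 115, 113 and 115 CPM in untreated iETV2 and 18.1, 17.4 and 19.1 with DOX. In the H188A line it was at 4.51, 4.44 and 3.18 CPM without and 2.7, 4.41 and 2.95 CPM with DOX, and these ranges overlapped. The control cells of experiment 3 had 1.54, 0.784 and 1.41 CPM and the libraries labelled DKO 3.38, 2.75 and 2.23, which did not overlap. The gene overlaps Thpo, and since no source used here states the strand setting of the counts, reads of the shared stretch are uncertain.

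Nog (chr11:89300638-89302559, ENSMUSG00000048616), the second BMP antagonist, was at 7.7, 9.14 and 8.52 CPM in untreated iETV2 and at 1.7, 1.77 and 1.56 with DOX. Its next highest group was the control of experiment 3, at 3.84, 4.41 and 4.89 CPM, which overlapped the libraries labelled DKO at 4.14, 3.95 and 3.41. The H188A line had 0.893, 0.591 and 1.15 CPM without DOX and 2.92, 0.459 and 0.692 with DOX, so that 1 DOX library, replicate 1, stood above the other 5. That library also had the highest visceral endoderm marker sum, 1120 CPM against 554 and 542 in the other DOX replicates; its part in the Nog level was not tested.

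Foxa2 (chr2:148042877-148046969, ENSMUSG00000037025) encodes a forkhead factor needed to form the node and notochord and also made in endoderm and floor plate. It was at 111, 113 and 102 CPM in untreated iETV2 and 18.7, 19.4 and 19.1 with DOX. The H188A line had 6.15, 5.72 and 4.49 CPM without DOX and 8.85, 3.51 and 4.62 with DOX, the highest value again in DOX replicate 1. Levels were under 1 CPM in experiment 3, at 0.665, 0.176 and 0.522 in control and 0.717, 0.971 and 0.737 in the libraries labelled DKO.

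Noto (chr6:85423886-85428877, ENSMUSG00000068302), a homeobox factor of the node and notochord that acts upstream of Foxj1 in node cilium formation, had the steadiest level in untreated iETV2, at 34.3, 34.4 and 34.4 CPM. With DOX it was at 1.55, 1.1 and 2.22 CPM. Elsewhere it was close to the floor: 31, 15 and 6 counts in untreated H188A, 0, 3 and 0 with DOX, 4, 2 and 5 in the control of experiment 3 and 0 in each of the 3 libraries labelled DKO. The 31, 15 and 6 counts follow the same order of libraries as the receptor sums above.

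Foxd4 (chr19:24898943-24901016, ENSMUSG00000051490), a forkhead factor, was at 11.9, 11.1 and 10.1 CPM in untreated iETV2. With DOX it was at 0.176, 0.117 and 0.491 CPM, or 10, 8 and 27 counts. Unlike the other members it was then lower than in the H188A line, which had 0.669, 0.731 and 0.493 CPM without DOX and 1.62, 1.1 and 0.998 with DOX. The lowest untreated H188A library, at 34 counts and 0.493 CPM, was next to the highest iETV2 DOX library, at 27 counts and 0.491 CPM. In experiment 3 it had 0, 3 and 5 counts in control and 0, 2 and 2 in the libraries labelled DKO.

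Foxj1 (chr11:116330704-116335499, ENSMUSG00000034227), the master regulator of motile cilium genes, was at 236, 223 and 217 CPM in untreated iETV2 and 13.7, 14.2 and 13.7 with DOX. In the H188A line it was at 9.84, 9.36 and 10.4 CPM without DOX and 9.1, 10.6 and 12.4 with DOX. In experiment 3 it was at 0.988, 1.27 and 2.04 CPM in control and 18.7, 18.9 and 22 in the libraries labelled DKO. The second highest group of Foxj1 was therefore the one labelled DKO, above iETV2 with DOX in every library.

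Pkd1l1 (chr11:8825696-8974709, ENSMUSG00000046634) encodes a polycystin of node cilia that takes part in sensing the flow. Untreated iETV2 had 346, 394 and 355 CPM and DOX-treated iETV2 54.3, 60.7 and 52.7. The H188A line had 4.76, 3.1 and 2.33 CPM without and 1.74, 2.5 and 2.4 with DOX. Control cells of experiment 3 were at 0.485, 0.196 and 0.996 CPM and the libraries labelled DKO at 7.31, 7.31 and 7.24. The gene is 149014 bases long and overlaps the predicted genes Gm40815 and Gm40814.

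**Figure D1:**
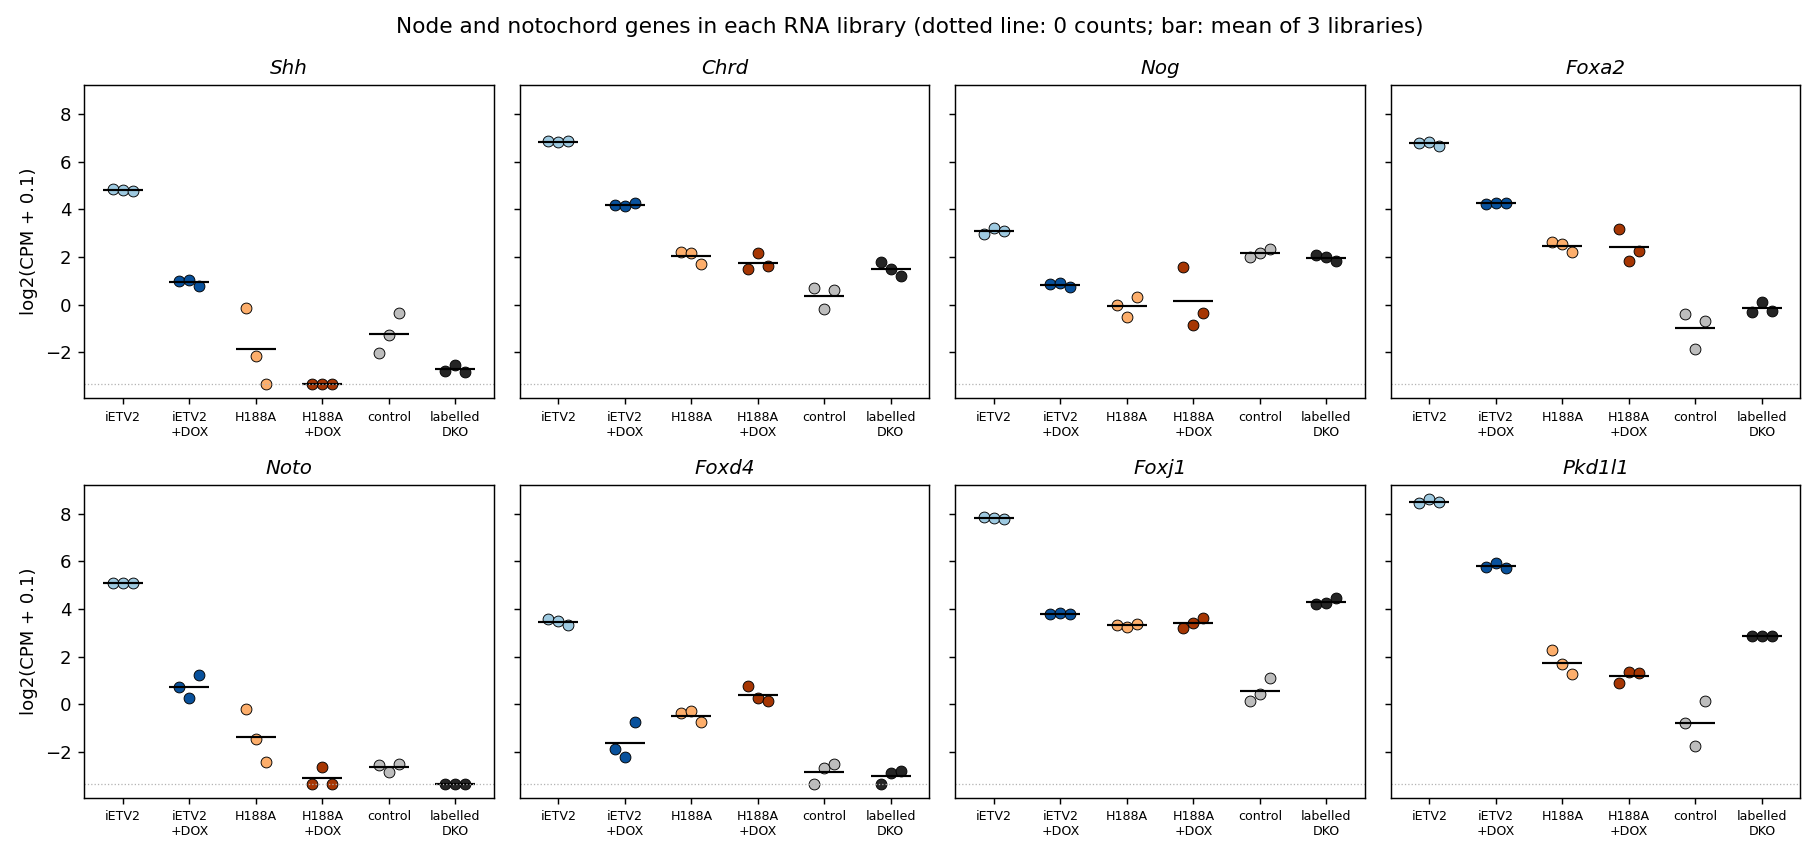
Level of each of the 8 genes as log2(CPM + 0.1) in each of 18 RNA libraries, 3 points per group with the group mean as a bar and 0 counts as a dotted line. The 3 untreated iETV2 libraries lie above all others in every panel, and Foxj1 and Pkd1l1 are higher in the libraries labelled DKO than in their control.

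Experiment 1 asked what DOX changes in iETV2 cells. All 8 members passed the low-count filter and were lower with DOX, with no overlap between the groups. The log2 changes were -5.43 ± 0.27 (SE, 3 libraries against 3) for Foxd4, -4.42 ± 0.15 for Noto, -4.01 ± 0.08 for Foxj1, -3.93 ± 0.11 for Shh, -2.70 ± 0.09 for Pkd1l1, -2.64 ± 0.07 for Chrd, -2.50 ± 0.08 for Foxa2 and -2.31 ± 0.14 for Nog. All 8 were past the threshold used for other genes (edgeR's quasi-likelihood test, Benjamini-Hochberg adjusted p under 0.05), where 13.3% of the 22025 tested genes were lower and 13.7% higher, and 20.6% were lower and 20.9% higher with groups that did not overlap. Without DOX replicate 3 the change of Foxd4 was -6.23. In bulk RNA, fewer cells of a type and less RNA of these genes per cell cannot be told apart.

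Markers of other cell types, some of which make some of these genes, moved as well. The neural tube and floor plate markers fell in 5 of 6 tested genes, and their summed level was 15.8 to 19.8 CPM without and 2.9 to 5.09 with DOX. Among them Corin, a gene of the floor plate, fell from a mean of 4.64 to 0.29 CPM (log2 change -4.02 ± 0.31, adjusted p = 5.5e-08) and Lmx1a from 5.66 to 0.887 CPM (-2.66 ± 0.21, adjusted p = 5.34e-08). Of 8 definitive endoderm markers 4 fell and 3 rose, and the sum was 938 to 1020 and 518 to 550 CPM, to which Trh contributed 594 to 667 and 216 to 249. Of 7 tested visceral endoderm markers 3 rose and 0 fell (median 0.86), with sums of 21.1 to 24 CPM without and 42.4 to 49 with DOX. All 8 blood and endothelium markers rose, with sums of 17.4 to 23.7 and 499 to 521 CPM. The part of these cells in the members' levels was not tested.

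Around the members, 101 genes of 6 lists were tested, and 61 fell and 17 rose, with a median log2 change of -0.87 against 0.00 over all tested genes. Of all 22025 tested genes 13.3% fell and 13.7% rose past the threshold. The lists too were chosen with earlier results of these data known. Their counts, medians and adjusted p, here and below, are therefore a description. In the list of ciliogenic regulators and motile cilium genes, 22 of 25 fell and 1 rose (median -2.65). Cfap206, a protein of the ciliary axoneme, fell by 5.58 ± 0.13 (adjusted p = 4.78e-14), the dynein regulatory complex gene Drc1 fell by 4.57 ± 0.15 (adjusted p = 1.83e-12) and Tekt1, a tektin of axonemal microtubules, fell by 4.41 ± 0.15 (adjusted p = 4.06e-12). Rfx3, a factor upstream of ciliary genes, fell by 0.87 ± 0.08 (adjusted p = 5.68e-07), and Dnaaf3, a dynein assembly factor, rose by 0.24 ± 0.08 (adjusted p = 0.0248). Among the left-right genes 5 of 14 fell and 2 rose. Dnah11, the dynein heavy chain of the node's rotating cilia, fell by 2.57 ± 0.08 (adjusted p = 1.91e-12).

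In the Hedgehog list 9 of 18 fell and 5 rose, with a median of -0.39. Ptch1 was at 592, 636 and 609 CPM without and 136, 144 and 126 with DOX, and fell by 2.17 ± 0.08 (adjusted p = 8.35e-12). Gli1 was at 45.8, 45.6 and 42.6 CPM without and 10.1, 10.2 and 12.1 with DOX, and fell by 2.04 ± 0.09 (adjusted p = 4.25e-11). The genes that rose included Scube2 and Disp1, which help release the ligand from producing cells, by 2.08 ± 0.27 (adjusted p = 1.55e-05) and 0.60 ± 0.07 (adjusted p = 7.16e-06), and the coreceptor gene Gas1 by 0.58 ± 0.08 (adjusted p = 5.37e-05).

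**Figure D2:**
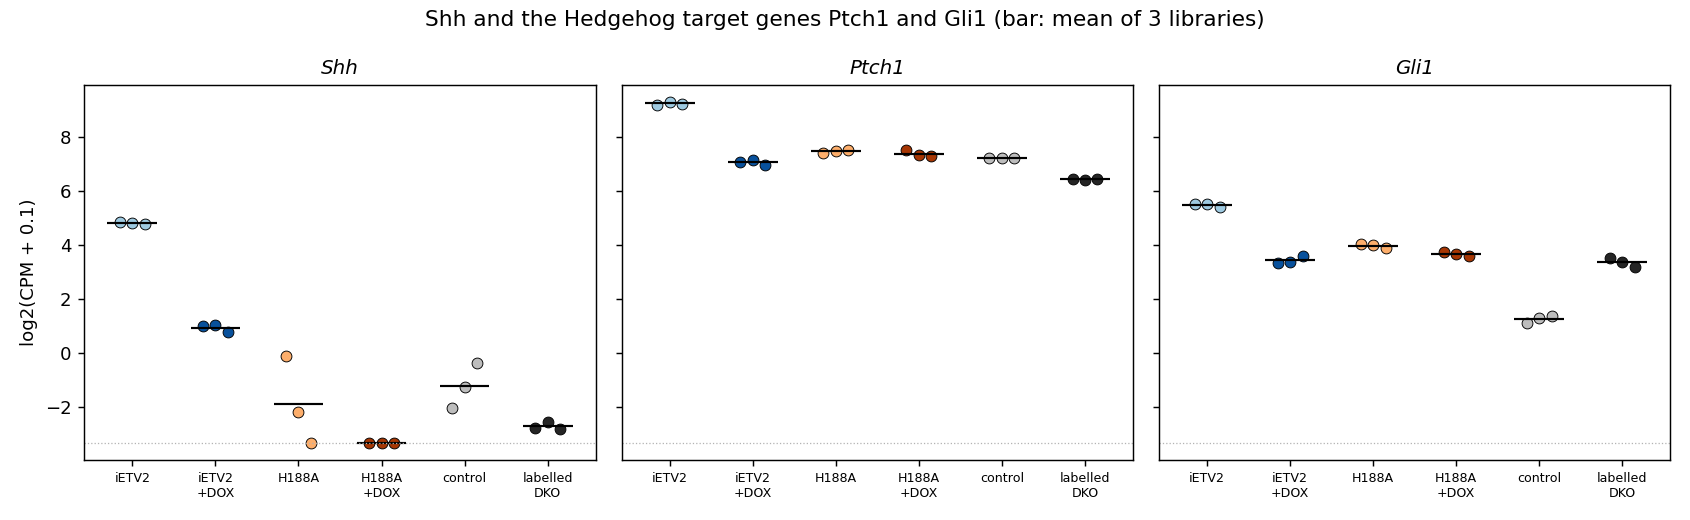
Levels of Shh and of the response genes Ptch1 and Gli1 as log2(CPM + 0.1) in each of 18 libraries, 3 points per group with the mean as a bar. All 3 genes are highest in untreated iETV2, while Ptch1 is at 86 CPM or more in every library, those with Shh at 0 counts included.

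The remaining lists were split. Of the BMP and Nodal antagonists 6 of 16 fell and 4 rose (median -0.31). Cer1 fell by 2.60 ± 0.08 (adjusted p = 1.6e-12), the Nodal antagonists Lefty1 by 1.00 ± 0.07 (adjusted p = 1.54e-08) and Dand5 by 1.66 ± 0.23 (adjusted p = 3.87e-05), whereas Lefty2 rose by 0.79 ± 0.08 (adjusted p = 1.03e-06) and Bmper, a secreted BMP modulator, by 2.70 ± 0.09 (adjusted p = 1.83e-12). Of the organizer and axial mesoderm factors 10 of 16 fell and 3 rose (median -0.85). Foxa1, a relative of Foxa2, fell by 1.66 ± 0.09 (adjusted p = 1.01e-09), Otx2 by 1.26 ± 0.07 (adjusted p = 5.19e-10) and T by 0.33 ± 0.07 (adjusted p = 0.00177). Mixl1 and Eomes, factors of the primitive streak, rose by 2.09 ± 0.08 (adjusted p = 1.27e-11) and 0.90 ± 0.07 (adjusted p = 2.97e-08). Of the 12 notochord matrix and keratin genes 9 fell and 2 rose (median -1.31), with Col2a1, the type II collagen of the notochord sheath, down by 1.99 ± 0.08 (adjusted p = 1.63e-11) and Krt18 by 1.54 ± 0.08 (adjusted p = 2.87e-10), and Col9a1 up by 1.37 ± 0.23 (adjusted p = 0.000247).

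In the H188A line, 6 members passed the filter and Shh and Noto did not. The log2 changes with DOX were 1.02 ± 0.35 for Foxd4, 0.67 ± 0.63 for Nog, 0.16 ± 0.12 for Foxj1, 0.11 ± 0.30 for Foxa2, -0.22 ± 0.21 for Chrd and -0.56 ± 0.26 for Pkd1l1. None of the 6 was past the threshold of edgeR's test or of DESeq2, and 1 had an unadjusted p under 0.05 in edgeR, beside 2.22% of 21086 genes that were higher and 0.801% lower. Among these 6, Foxd4 was the single one whose groups did not overlap, higher with DOX, as were 11.9% of all tested genes, with 15.2% lower. Of the 2 that were filtered out, Noto was lower with DOX without overlap, at the few counts given above. The changes of Nog and Foxa2 turned to -0.54 and -0.35 without DOX replicate 1, the library with the highest visceral endoderm sum.

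Of 95 tested pathway genes in this line 5 rose and 1 fell, beside 2.22% of all 21086 tested genes that rose and 0.801% that fell. Those that rose were the organizer and streak genes T by 2.04 ± 0.44 (adjusted p = 0.0417), Lhx1 by 1.97 ± 0.40 (adjusted p = 0.0357), Sox9 by 1.04 ± 0.18 (adjusted p = 0.021) and Eomes by 0.40 ± 0.08 (adjusted p = 0.0285), and the follistatin relative Fstl1 by 0.34 ± 0.06 (adjusted p = 0.0241). T and Lhx1 stayed low in this line. T had 23, 18 and 13 counts without and 61, 83 and 78 with DOX. Lhx1 had means of 0.967 and 3.58 CPM, beside 200 CPM in untreated iETV2. Dnah11 fell by 0.62 ± 0.14 (adjusted p = 0.0471). Blood and endothelium markers moved with DOX in this line too: 5 of 7 tested rose (median 2.70), and the sum of the 8 was 59.1 to 69.3 CPM without and 168 to 174 with DOX. The part of these cells in the calls was not tested. The count of 6 was 3, 0 and 11 without untreated replicates 1, 2 and 3, and 9, 1 and 0 without DOX replicates 1, 2 and 3. Among the Hedgehog genes edgeR called 0 of 16, with 7 at an unadjusted p under 0.05 and 3 called by DESeq2. For the cilium genes these counts were 0, 2 and 0 of 22, and for the matrix and keratin genes 0, 5 and 2 of 12. Ptch1 was at 172, 179 and 186 CPM without and 186, 163 and 157 with DOX (log2 change -0.04 ± 0.08, adjusted p = 0.788), and Gli1 at 16.3, 15.9 and 14.7 without and 13.3, 12.6 and 12 with DOX (-0.26 ± 0.08, adjusted p = 0.108).

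**Figure D3:**
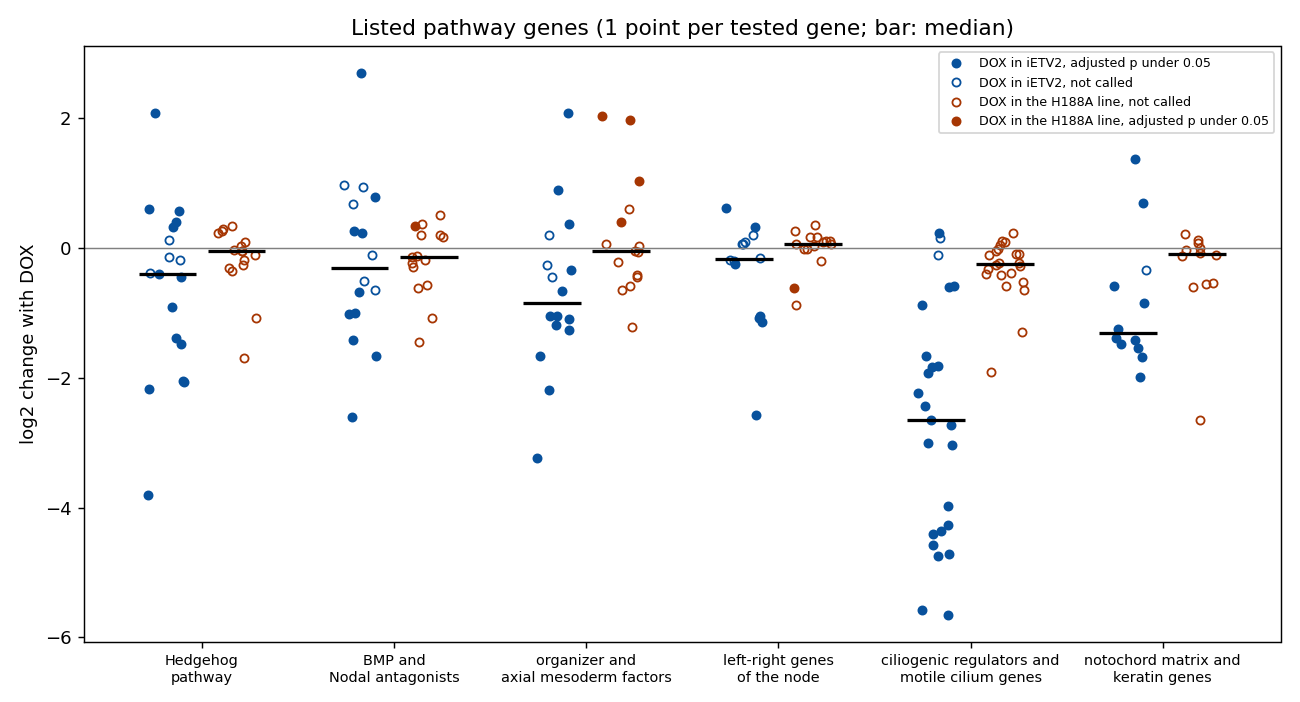
Log2 change with DOX of each tested gene of the 6 pathway lists, in iETV2 (blue) and the H188A line (brown), filled where edgeR's adjusted p is under 0.05, with the median of each list as a bar. The cilium list has a median of -2.65 in iETV2 and -0.25 in the H188A line.

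The difference between the DOX responses was fitted over the 12 libraries of both lines. These values reuse the libraries of both comparisons above, and line and experiment cannot be told apart. For 6 members the response in H188A minus that in iETV2 was 6.45 ± 0.47 for Foxd4, 4.18 ± 0.15 for Foxj1, 2.97 ± 0.66 for Nog, 2.62 ± 0.31 for Foxa2, 2.43 ± 0.19 for Chrd and 2.19 ± 0.25 for Pkd1l1 on the log2 scale, beside 8.22% of 25516 genes with a higher and 6.2% with a lower value past the threshold. The value was 7.23 for Foxd4 without iETV2 DOX replicate 3 and 1.74 for Nog without H188A DOX replicate 1. No such value is given for Shh and Noto, which had 0 counts, or 3 in 1 library, in H188A with DOX. Of 102 pathway genes 45 had a higher and 10 a lower response in H188A (median 0.84 against -0.13 over all genes). The difference was 2.13 ± 0.13 for Ptch1 (adjusted p = 3.2e-08) and 1.79 ± 0.12 for Gli1 (adjusted p = 7.22e-08), and 18 of 25 cilium genes were higher, with a median of 2.17. These genes were also low in untreated H188A, which the next comparison gives.

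Without DOX, the members were all lower in H188A than in iETV2, again without overlap. The log2 differences were -6.75 ± 0.52 for Shh, -6.75 ± 0.19 for Pkd1l1, -6.67 ± 0.37 for Noto, -4.78 ± 0.14 for Chrd, -4.46 ± 0.11 for Foxj1, -4.28 ± 0.23 for Foxa2, -4.08 ± 0.32 for Foxd4 and -3.20 ± 0.48 for Nog. Without untreated H188A replicate 1 they were -8.86 for Shh and -7.60 for Noto, and without replicate 3 Shh was at -6.04. Of all 25516 genes 18.6% were lower and 19.7% higher past the threshold, and 26.7% were lower and 23.5% higher without overlap. The untreated iETV2 libraries are shared with the DOX comparison above, and the lines were also different experiments. Of the pathway genes 69 of 102 were lower and 9 higher, among them Ptch1 (-1.72 ± 0.09, adjusted p = 4.1e-10), Gli1 (-1.47 ± 0.08, adjusted p = 8.67e-10), Cfap206 (-4.56 ± 0.21, adjusted p = 8.74e-11), Cfc1, the Nodal coreceptor gene of the left-right pathway (-5.86 ± 0.11, adjusted p = 5.7e-15) and T (-11.30 ± 0.18, adjusted p = 2.53e-15). Ihh, a second Hedgehog ligand made in visceral endoderm, was higher (3.02 ± 0.35, adjusted p = 3.71e-06). Pluripotency and visceral endoderm markers were also higher in H188A, each in 7 of 8 genes, with visceral endoderm sums of 694 to 721 CPM against 21.1 to 24; their part in the members' levels was not tested.

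Experiment 3 compared the libraries labelled DKO with control cells. Of the members 5 passed the filter. Foxj1 was higher by 3.65 ± 0.15, Pkd1l1 by 3.53 ± 0.26 and Chrd by 1.03 ± 0.24 on the log2 scale, Foxa2 had a change of 0.70 ± 0.43 and Nog one of -0.32 ± 0.14. Past the threshold were 3 higher members and 1 lower, Nog, whose CPM ranges overlapped, and 4 were higher without overlap. Of the members filtered out, Shh and Noto were lower without overlap, at the few counts given above. Of 20426 genes 35.6% were higher and 33.7% lower past the threshold, and 43.5% were higher and 29.7% lower without overlap. DESeq2 called 3 of the 5 members. Pkd1l1 was higher by 4.24 without control replicate 3. The libraries labelled DKO also differed in their makeup: 8 of 8 pluripotency markers rose and 8 of 8 blood and endothelium markers fell, with blood and endothelium sums of 125 to 129 CPM against 1220 to 1240. Of 6 tested neural tube and floor plate markers 3 rose and 1 fell, with sums of 47.4 to 54.5 CPM against 3.22 to 5.45. Of 8 definitive endoderm markers 2 rose and 6 fell. Their sum was 758 to 772 CPM against 226 to 230, to which Trh contributed 563 to 579 against 4.96 to 5.96. Of 6 tested visceral endoderm markers 2 rose and 3 fell. The part of these differences in the members' levels was not tested.

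**Figure D4:**
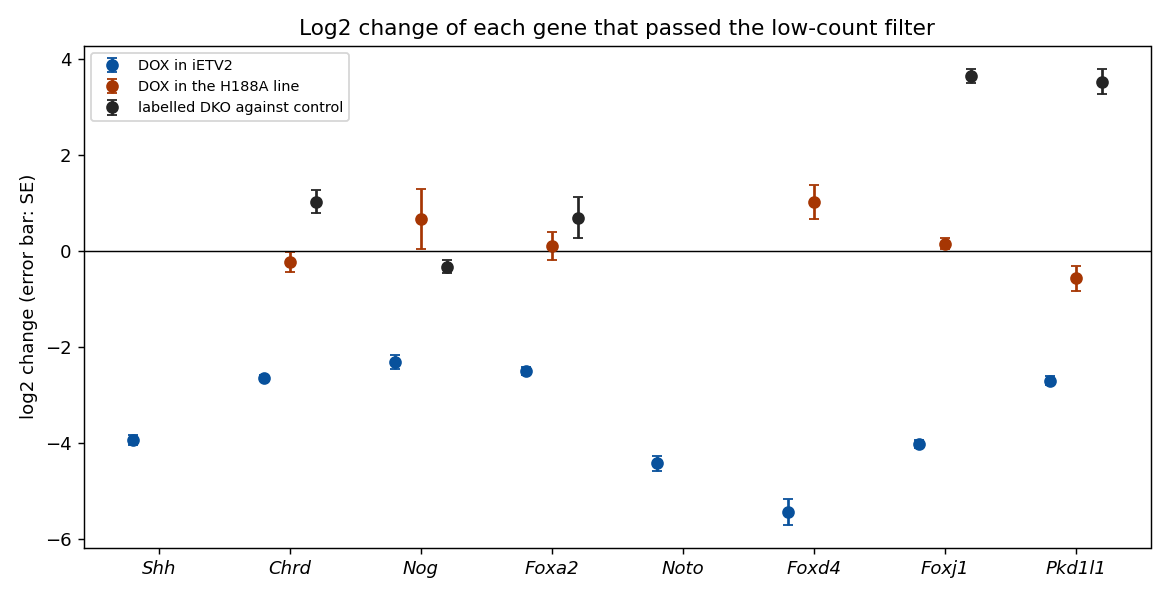
Log2 change ± SE of each member that passed the low-count filter, for DOX in iETV2 (blue), DOX in H188A (brown) and the libraries labelled DKO against control (black), 3 libraries against 3. All 8 points for iETV2 lie between -5.43 and -2.31, those for H188A between -0.56 and 1.02, and Foxj1 and Pkd1l1 lie at 3.65 and 3.53 in the libraries labelled DKO.

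Pathway genes moved both ways in the libraries labelled DKO, with 54 of 99 higher and 29 lower (median 0.37 against 0.04). Of all 20426 tested genes 35.6% were higher and 33.7% lower past the threshold, and the list counts below stand beside these shares. The direct Hedgehog targets went apart. Gli1 rose from 2.07, 2.39 and 2.51 CPM to 11.4, 10.3 and 9.14 (log2 change 2.02 ± 0.12, adjusted p = 3.3e-12), while Ptch1 fell from 150, 149 and 151 to 87.6, 86 and 87.6 CPM (-0.91 ± 0.04, adjusted p = 4.65e-15). Hhip, which binds and limits Hedgehog ligands and is itself a target, rose by 3.06 ± 0.28 (adjusted p = 3.19e-09), and the transducer gene Smo fell by 0.79 ± 0.04 (adjusted p = 2.25e-13). Of 22 tested cilium genes 14 rose and 2 fell (median 1.08), with Rfx2 up by 2.75 ± 0.07 (adjusted p = 2.34e-19) and the dynein intermediate chain gene Dnaic1 by 2.76 ± 0.22 (adjusted p = 3.35e-10). Of the organizer factors 13 of 16 rose (median 2.00), among them Otx2 by 5.64 ± 0.07 (adjusted p = 6.7e-24) and T by 1.87 ± 0.04 (adjusted p = 3.28e-20). Nodal rose by 4.73 ± 0.06 (adjusted p = 1.36e-23) and its antagonist Lefty1 by 5.86 ± 0.13 (adjusted p = 7.17e-20).

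The genes whose pattern over the 6 group means was most like that of each member were found by the root mean square difference of centred log2 CPM, a description over 6 groups that share their libraries. Shh and Noto were nearest to each other (0.65), followed for both by Vwa5b1 (0.74 and 0.80). Outside iETV2 both had few counts, so this match rests largely on the iETV2 groups and on the 0.1 CPM added before the log. Only genes of at least 1 CPM on average were compared, a mean that a single high group can meet. Foxj1 was nearest to the ciliary gene Dnajb13 (0.45) and to Drc1 (0.62), Foxd4 to the axonemal dynein gene Dnah6 (0.62) and to Cfap206 (0.66), and Foxa2 to Spag16 (0.82) and Zmynd10 (0.85). Chrd was nearest to Armc4 (0.33) and Tctex1d1 (0.46), Nog to the keratin gene Krt19 (0.23) and the chaperone gene Dnaja4 (0.31), and Pkd1l1 to the forkhead gene Foxb1 (0.60) and Cer1 (0.91). Krt19, like Nog, had its second highest level in the control of experiment 3, with 53.8 CPM in untreated iETV2, 16.7 with DOX, 7.05 and 7.38 in H188A, 43.5 in that control and 32.1 in the libraries labelled DKO.

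H3K9me3 was not used to choose the members. Within 5 kb of the gene, 1 of the 8 members, Pkd1l1, had a deposited region in each of the 6 ChIP libraries, where between 27 and 31% of 21900 protein-coding genes had one. As the number did not vary between libraries, DOX-treated and untreated libraries gave no difference to test. One region inside Pkd1l1 was called in all 6 libraries and covered most of the predicted gene Gm40814 (chr11:8920852-8929275). It was called as chr11:8920401-8929200 in untreated replicate 2 and as chr11:8920601-8929800 in DOX replicate 1. The deposited log2 enrichment over input was 1.59, 1.53 and 1.79 in the untreated and 1.67, 1.34 and 1.82 in the DOX libraries, and these ranges overlapped. The region lies within the gene and not at its start, whose promoter is shown above.

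Foxd4 and Shh had regions in all 6 libraries just outside that window. For Foxd4 the nearest began between 5.6 and 7.0 kb from the gene, on the side of its start site, and for Shh between 8.2 and 9.2 kb. The nearest region to Foxj1 was 53.3 to 53.9 kb away, to Foxa2 114.8 to 116.4 kb and to Noto 227.1 to 228.3 kb. The nearest to Chrd was 72.0 to 72.6 kb away in 5 libraries and 29.4 kb in untreated replicate 1. For Nog the distance varied between 59.6 and 218.6 kb. Within 50 kb, Shh, Foxd4 and Pkd1l1 had a region in 6 of 6 libraries and Chrd in 1, untreated replicate 1. The share of all genes with a region within 50 kb was not computed, so nothing is read from this count.

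**Figure D5:**
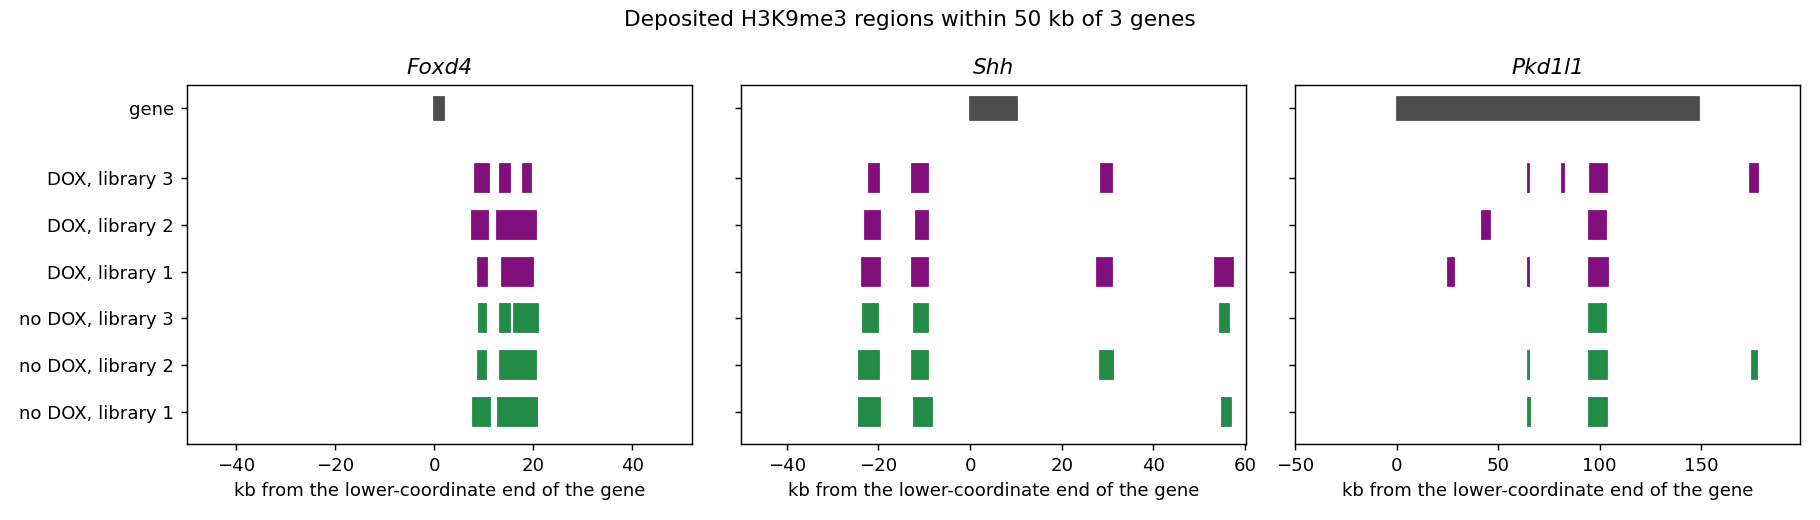
Deposited H3K9me3 regions within 50 kb of Foxd4, Shh and Pkd1l1 in 3 untreated (green) and 3 DOX (purple) libraries, by distance in kb from the lower-coordinate end of each gene (grey bar). Each gene has regions at the same place in all 6 libraries, and those of Foxd4 and Shh lie outside the gene.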

How the data were processed

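For every RNA library the authors deposited a table of unnormalized counts by Ensembl gene. Per the submitters' processing notes, the RNA tools were featureCounts 2.0.6, STAR 2.7.10b, HTSeq 2.0.3, Picard 3.0.0, DESeq2 1.18.1 and StringTie 2.2.1, with builds GRCm38 and mm10; which tool counted, and the strand setting, are not given in the sources used here. Per the file headers, the deposited H3K9me3 regions of each ChIP library carry ChIP and input counts, a score (not used here), a log2 enrichment, and a p-value and FDR; the caller is not given either.

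Counts were analysed with edgeR 4.0.16 in R 4.3.3 (filterByExpr, TMM, quasi-likelihood F test, Benjamini-Hochberg over all tested genes, threshold 0.05), with DESeq2 1.42.0 as an alternative. DOX in each line and experiment 3 were fitted on their own 6 libraries, the others on 12. Each SE was taken as |log2 change| over the root of the F statistic. The fit was tested on counts simulated for DOX in iETV2. It called 73 of 96 genes changed 4-fold, fewer than the share first required. The requirement was then limited to genes with an average log2 CPM of at least 0, where 68 of 75 were called, against 5 of 21 below. CPM use the library total, so a log2 change can differ from a CPM ratio. The members and gene lists were chosen with earlier results of these data known. Named genes are the members, up to 3 genes per list, comparison and direction with the smallest adjusted p, Ptch1, Gli1, Etv2, Kdm4a and Kdm4c, and the 2 genes nearest each member in pattern, of at least 1 CPM on average. Some genes that met this rule are not reported here, although they stayed in all tests and counts. T in each comparison, Rfx3, Trh, Corin and Lmx1a were added after their values were seen. Of 104 listed genes, 103 matched a symbol; Gdf1 had 0 counts. Same-numbered iETV2 libraries deviated together (r = 0.162, 0.419 and 0.356), while other number pairs had r from -0.435 to 0.108. The numbers may therefore pair the samples there. All reported values come from fits without a replicate block, which leave any pairing out of each SE and p. The block is an alternative. ChIP distances are from either gene end in the RefSeq annotation (GRCm38.p6). Python 3.11.15, pandas 2.3.3 and matplotlib 3.10.9 were used.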

Additional observations from a re-analysis of the deposited data

Results flagged for a closer look

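The DOX response differed between the H188A line and iETV2 by edgeR's interaction test, 12 libraries, in the genes named here. Values are the response in H188A minus that in iETV2 on the log2 scale, with adjusted p between 2.19e-08 (Ccdc40) and 0.0459 (Disp1). In the Hedgehog list they were 2.13 for Ptch1, 1.79 for Gli1, -1.75 for Scube2, -0.62 for Boc and -0.34 for Disp1. Among the BMP and Nodal antagonists they were 0.86 for Lefty1, -0.97 for Lefty2 and -2.48 for Bmper. The organizer and axial mesoderm factors had 1.33 for Otx2, 2.23 for Sox9, 2.46 for T, -1.47 for Mixl1, -0.49 for Eomes and -0.41 for Tdgf1. For the left-right genes the differences were 1.42 for Bicc1 and 1.96 for Dnah11, and for the cilium genes 2.33 for Ccdc40, 2.79 for Ccdc39 and 4.18 for Drc1. The notochord matrix and keratin genes had 1.61 for Cd24a, 1.62 for Krt18, 1.82 for Krt19, -1.28 for Col11a1 and -3.99 for Col9a1. Line and experiment cannot be told apart in these values. They and their adjusted p are a description, because the lists were chosen with earlier results known. Some of these genes were low in H188A. Mean levels there without and with DOX were 0.479 and 0.712 CPM for Mixl1 and 0.83 and 0.127 for Col9a1. T was at 0.188 to 0.57 and 1.26 to 1.66 CPM. Drc1 had means of 2.58 and 1.88 CPM in H188A, beside 31.2 and 1.31 in iETV2.

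For Foxd4 every DOX library was below every untreated one in iETV2 and above every untreated one in H188A, where its log2 change of 1.02 ± 0.35 did not pass the threshold. The fitted difference of the responses was 6.45 ± 0.47, a description, because the gene was chosen with its levels known. Counts per library were 27, 42 and 34 in H188A without DOX and 78, 55 and 62 with it.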

How the results depend on the processing

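Counts of called pathway genes stayed within 1.5 times of the reported one in 4 comparisons under every alternative run (another scaling, DESeq2, no filter, 1 CPM in 3 libraries, replicate block, each library left out). For DOX in the H188A line the 6 calls became 11 with DESeq2, 19 without the low-count filter and 1 with the replicate block, and ranged from 0 to 11 when 1 library was left out; the cause was not tested. All tested genes called there were 637, against 1388, 2032 and 263 under those settings. With the replicate block the pathway counts were 85 for DOX in iETV2 (78 without it), 81 in the libraries labelled DKO (83), 54 for the difference between lines (55) and 76 between untreated lines (78). The numbers may pair libraries in iETV2. In the H188A line same-numbered libraries had r = 0.029, 0.137 and 0.322, and other number pairs reached 0.269. In experiment 3 the same-numbered values were 0.007, 0.012 and 0.049, and other pairs reached 0.03. The numbers are not read as a pairing in either. Of 478 values of members' log2 changes under alternatives 459 moved by less than the SE times the root of 1.5, and 19 by more. This yardstick is 1 SD between replicates for 3 libraries against 3, but wider than that for the difference between lines. The 478 include that difference for Shh and Noto, with SE of 2.94 and 2.26. The sign changes of Nog and Foxa2 in the H188A line, given above, are among these values too. Members with an H3K9me3 region numbered 1 within 5 kb and in the gene body, and 3.17 on average within 50 kb, a wider window by construction. For 50 kb the share of all genes was not computed. Levels of Shh, Noto and Foxd4 in the H188A line and experiment 3 rest on few counts.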
